A study of Homo sapiens with 4 samples.

Results

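ATF4 is the transcription factor through which cells answer a shortage of amino acids and other stresses. Stress kinases phosphorylate the initiation factor eIF2, general protein synthesis slows, and ATF4 messenger RNA is translated more, so that the amount of ATF4 protein is set largely after transcription. ATF4 pairs with C/EBP proteins on a short composite element, the C/EBP-ATF response element or CARE, and drives genes that make amino acids, feed the one-carbon cycle, carry amino acids across the plasma membrane and, under longer stress, limit the response or promote cell death. The 32 genes described here are ATF4 itself, its established targets and the enzymes and transporters of amino acid supply. They were chosen by name, and the symbols of all 32 were found among the 19205 genes of the deposited expression table.

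Polyadenylated RNA was sequenced from LNCaP, a human line from metastatic prostate cancer that depends on the androgen receptor. The OE group held 2 libraries of cells overexpressing HOXD13, a homeobox transcription factor, and the EV group held 2 libraries of cells with the empty vector. Both groups had been infected with lentivirus, selected with puromycin and grown in RPMI-1640 with fetal bovine serum, so the vector and the drug selection were shared by the controls. The labels do not say whether the replicates were separate cultures, and the spread behind each p-value is that between libraries of a group, which could be purely technical.

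Total expected counts per library were 8335067 and 8530487 in OE and 6881110 and 7662978 in EV, and all 32 genes passed the filter on low counts. HOXD13 had 88 and 104 counts in the OE libraries and 0 in both EV libraries, as labelled. Levels are given in FPKM, a fragment count scaled by transcript length and library size. The 9 prostate markers summed to 4906 and 5018 FPKM in OE and 3584 and 3618 FPKM in EV, and 5 of the 9 were called higher and 1 lower. Of the markers of other cell types, 4 of fibroblasts summed to 6.48 and 6.89 FPKM in OE and 6.24 and 7.21 FPKM in EV, and 5 of leukocytes to 42.2 and 43.8 FPKM in OE and 37.4 and 41.1 FPKM in EV, most of it LYZ. CD3E and ITGAM, which define T cells and myeloid cells, were listed at 0 in all 4 libraries. The other leukocyte markers were present in all 4, with CD68 between 6.85 and 9.65 FPKM and PTPRC between 0.8 and 1.64 FPKM. Neither CD68 nor PTPRC was called. The 3 endothelial markers summed to 4.13 and 4.26 FPKM in OE and 2.91 and 3.13 FPKM in EV, most of it VWF, which was called higher (log2 fold change 0.52, SE 0.117, adjusted p = 0.00195). The part of these marker differences in the results was not tested.

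Sequence around the transcription starts was searched for the letters of the element that ATF4 and its partners read. RefSeq promoter windows of 300 bases, from 250 before to 50 after each start in GRCh38.p14, were at hand for 26 of the 32 genes. The letters TGATGNAA, searched on both strands, were found in at least 1 window of 10 of these 26 genes (38.5%), against 292 of 11081 tested genes with a window (2.64%). Counted by window, 1.96% of 15933 windows held them. The genes had been listed in part because they are known ATF4 targets, and a match of letters is not a measured binding site. The matches of 7 genes are shown 5′ to 3′ on the gene's strand with the 8 matching bases in capitals, for the called genes that held a match and for 4 genes that were not called.
ASNS, chr7:97872439-97872506, minus strand: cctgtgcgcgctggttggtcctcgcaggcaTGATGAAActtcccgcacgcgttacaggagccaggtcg
SLC3A2, chr11:62881725-62881748, plus strand: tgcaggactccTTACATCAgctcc
SLC7A1, chr13:29595663-29595692, minus strand: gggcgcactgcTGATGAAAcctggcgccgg
CHAC1, chr15:40953232-40953299, plus strand: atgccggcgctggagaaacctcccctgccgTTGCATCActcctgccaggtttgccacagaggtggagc
CEBPG, chr19:33374060-33374089, plus strand: cgcgcggcgtcTGATGCAAcctgccggcaa
MTHFD1L, chr6:150866346-150866375, plus strand: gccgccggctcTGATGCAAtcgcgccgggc
SLC1A4, chr2:64989381-64989410, plus strand: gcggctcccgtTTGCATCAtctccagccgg

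In ASNS the first base of the match lay at position -68, and in CHAC1 at position -209, counted from the start at 1 with no position 0. In SLC3A2 and SLC7A1 the match lay just after a start, at positions 38 and 8. SLC3A2, CHAC1 and SLC1A4 carried the element on the opposite strand. The other 3 genes with a match were ATF3, SLC1A5 and SLC38A1. Windows of ATF4, PSAT1, PHGDH, MTHFD2, XPOT and STC2, which were also called, did not hold these letters. NUPR1 and PYCR1, called as well, had no window. An element outside the windows or with other letters would have been missed, so a missing match does not show a missing element. The cyclic AMP response element TGACGTCA was in no window of the 26 genes and in windows of 3.72% of tested genes. TTTATTG, a core sequence preferred by HOX13 proteins, was in a window of SLC38A1 alone among the 26 genes, and in windows of 3.35% of tested genes.

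With HOXD13 overexpression, ATF4 and much of the serine, asparagine and proline synthesis branch were slightly lower. The 7 transporters had 1 call each way, and 5 of them had positive log2 fold changes. Of the 32 genes, 9 fell, 2 rose and 21 were not called. The genes that fell were ATF4, NUPR1, XPOT, ASNS, PSAT1, PHGDH, PYCR1, MTHFD2 and SLC3A2, and those that rose were STC2 and SLC7A1. Every called difference was small, between 0.12 and 0.32 on the log2 scale in size. Of all tested genes 16.0% were called in either direction, against 34.4% of the 32. Calls come from the edgeR quasi-likelihood test at a Benjamini-Hochberg adjusted p under 0.05 over all 14112 genes tested. Lower calls made up 28.1% of the 32 genes and 8.11% of all tested genes, and higher calls 6.25% and 7.91%. The median log2 fold change, OE minus EV, was -0.09 over the 32 genes and 0.00 over all tested genes. In bulk RNA, a lower level in every cell and a loss of the RNA from some of the cells cannot be told apart.

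These genes are mostly abundant, and the median fold change of abundant genes was below 0, with called genes in both directions. Over 20 bins of level, the median log2 fold change of tested genes went from 0.16 at a median of 1.24 FPKM to -0.11 at a median of 167 FPKM. Among the 2895 tested genes that averaged 30 FPKM or more, 26.2% were called lower and 13.4% higher, a background chosen after the data were seen. Of the 32 genes, 19 were at or above that level, and 9 of these were called lower and 1 higher. Their median log2 fold change was -0.14, against -0.08 for all tested genes at that level. With the trend of fold change on level removed from each library, 8 of the 32 genes were lower and 3 were higher, against 6.18% lower and 7.77% higher among all genes.

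**Figure D1:**
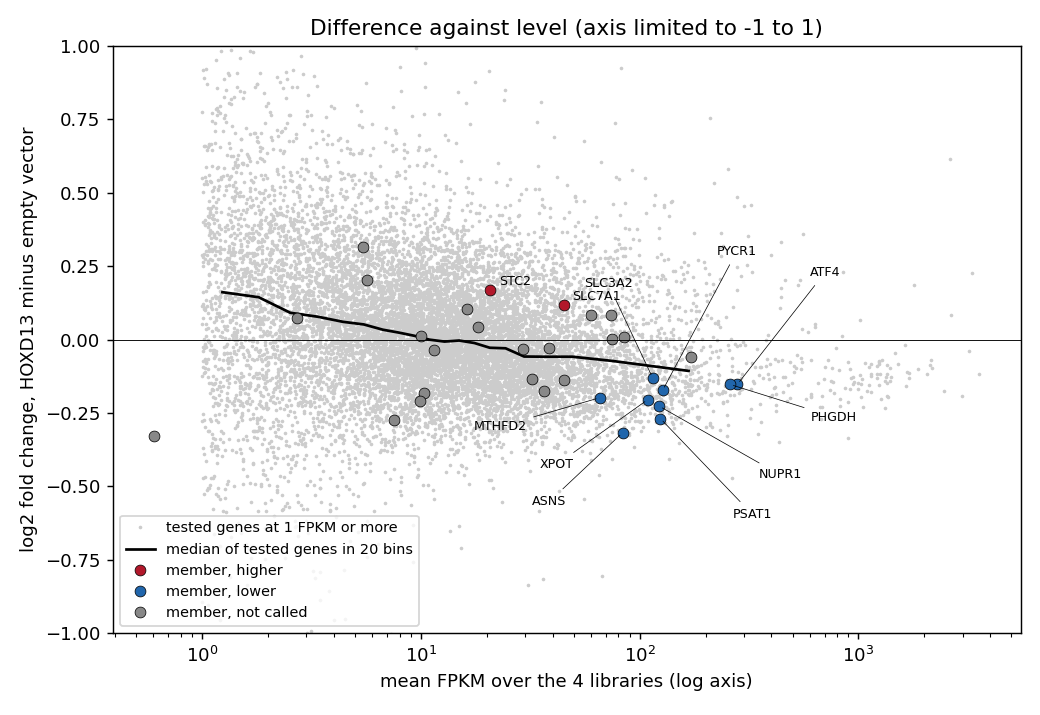
Mean FPKM over the 4 libraries (log axis) against the log2 fold change, HOXD13 minus empty vector, for the 12999 tested genes that averaged 1 FPKM or more (grey) and the 32 genes (large points, coloured by call). The black line is the median of tested genes in 20 bins of level, and 89 grey genes lie outside the drawn range of -1 to 1. ATF4 and PHGDH, both called lower at -0.15, lie to the right of the line's last point (167 FPKM, -0.11). The other genes called lower sit below the line, SLC3A2 being close to it.

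Among the transcription factors, 2 of 6 fell and 4 were not called. The 33.3% called lower stands against 8.11% of all tested genes. Both genes that fell averaged 30 FPKM or more, where 26.2% of tested genes were called lower, and the other 4 averaged less. ATF4 was the most abundant of the 32 genes, at 264 and 269 FPKM in the OE libraries and 289 and 297 FPKM in the EV libraries. Both OE libraries lay below both EV libraries, and the means were 266 ± 3.79 FPKM in OE and 293 ± 6.03 FPKM in EV (SD, n = 2 each). Such a gap between the groups, in either direction, was common: 54.1% of tested genes had one, and 24.8% had OE below EV. ATF4 fell by 10.0% (log2 fold change -0.15, SE 0.0360, adjusted p = 0.00301), and by 0.11 on the log2 scale with the level trend removed (adjusted p = 0.0319). NUPR1, a small stress-induced chromatin protein, had 114 FPKM in both OE libraries, against 135 and 129 FPKM in the EV libraries. The groups did not overlap, and NUPR1 fell by 0.23 on the log2 scale (SE 0.0571, adjusted p = 0.00541). Without EV replicate 2 the ATF4 call was lost (adjusted p = 0.0787), and without EV replicate 1 the NUPR1 call (0.0943).

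The other 4 factors were far less abundant than ATF4 and were not called. DDIT3, also known as CHOP, which promotes cell death under prolonged stress, had 18.2 and 18.7 FPKM in OE, between the 15.9 and 20.5 FPKM of EV. ATF3, a stress-induced repressor and activator, had 11.8 and 10.7 FPKM in OE and 12.1 and 11.1 FPKM in EV, so the groups overlapped. CEBPB, a C/EBP protein that can pair with ATF4, had 10.8 and 8.75 FPKM in OE and 10.5 and 11.4 FPKM in EV. Its log2 fold change of -0.18 was -0.33 without OE replicate 1 and -0.05 without OE replicate 2. CEBPG, the C/EBP partner whose promoter match is printed with the sequences, had 16.7 and 17.2 FPKM in OE and 15.5 and 15.6 FPKM in EV, without overlap (log2 fold change 0.11, SE 0.0740, adjusted p = 0.385). The adjusted p of these 4 genes ranged from 0.383 for CEBPB to 0.896 for ATF3.

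Of the 7 feedback and stress effectors, 1 fell, 1 rose and 5 were not called. The 14.3% called each way stands against 8.11% lower and 7.91% higher among all tested genes. The gene that fell, XPOT, averaged 30 FPKM or more, where 26.2% of tested genes were called lower. XPOT, the exporter of transfer RNA from the nucleus, had 103 and 101 FPKM in OE and 118 and 115 FPKM in EV. The OE libraries were the lower ones, and XPOT fell by 13.2% (log2 fold change -0.20, SE 0.0348, adjusted p = 7.49e-05). STC2, a secreted glycoprotein made under endoplasmic reticulum stress, had 22.1 and 22.0 FPKM in OE and 19.2 and 19.6 FPKM in EV. Both OE libraries were higher, as for 29.3% of all tested genes, and STC2 rose (log2 fold change 0.17, SE 0.0552, adjusted p = 0.0348). That call was lost when any 1 of the 4 libraries was left out, with adjusted p between 0.0812 and 0.246.

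TRIB3, a pseudokinase that feeds back on ATF4, had 36.4 and 32.7 FPKM in OE and 37.3 and 40.1 FPKM in EV. The OE values were the lower ones, and the difference missed the threshold (log2 fold change -0.18, SE 0.0651, adjusted p = 0.0620). It passed without OE replicate 1 (log2 fold change -0.25, adjusted p = 0.0133), but was -0.11 without OE replicate 2 (0.414) and -0.13 without EV replicate 2 (0.377). CHAC1, which degrades glutathione and is among the most ATF4-responsive genes, had 7.41 and 6.36 FPKM in OE and 8.83 and 7.60 FPKM in EV (log2 fold change -0.27, SE 0.171, adjusted p = 0.315). Its groups did not overlap, but its standard error was large beside that of XPOT, and its value was -0.16 without EV replicate 1 and -0.17 without OE replicate 2.

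DDIT4 and SESN2, which restrain mTORC1, had log2 fold changes of 0.00 (SE 0.0533) and 0.01 (SE 0.0967). DDIT4 had 78.5 and 72.7 FPKM in OE and 73.9 and 75.4 FPKM in EV. SESN2 had 9.83 and 10.4 FPKM in OE and 10.1 and 9.77 FPKM in EV. In both genes the groups overlapped. VLDLR, a lipoprotein receptor, had 6.14 and 6.09 FPKM in OE and 4.95 and 5.58 FPKM in EV, without overlap and without a call (log2 fold change 0.20, SE 0.129, adjusted p = 0.319). Without EV replicate 1 its value was 0.11.

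**Figure D2:**
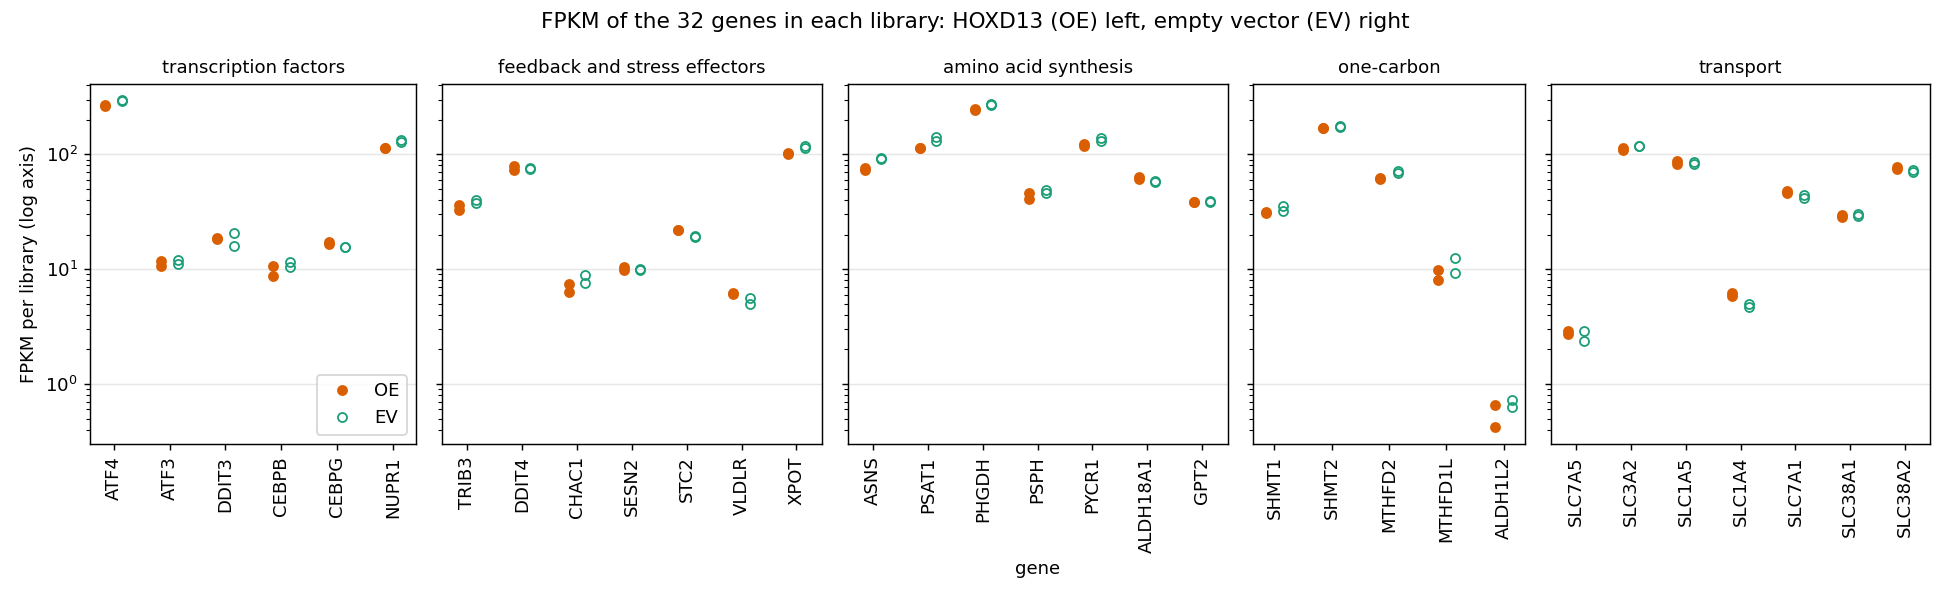
FPKM of each of the 32 genes in every library on a log axis, by role, with the 2 HOXD13 (OE) libraries as filled points on the left and the 2 empty-vector (EV) libraries as open points on the right of each gene. Levels run from 0.42 FPKM for ALDH1L2 to 297 FPKM for ATF4, and the gap between groups is small beside the range between genes.

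Amino acid synthesis held the largest share of called genes among the 5 roles, with 4 of 7 lower, none higher and 3 not called. Of all tested genes 8.11% were called lower. All 7 synthesis genes averaged 30 FPKM or more, where 26.2% of tested genes were called lower. Of the 32 genes, 13 lay below that level, all in other roles, and 1 of them was called. ASNS, which makes asparagine from aspartate and glutamine, had 76.4 and 73.3 FPKM in OE and 92.8 and 91.7 FPKM in EV. The means were 74.9 ± 2.18 FPKM in OE and 92.3 ± 0.820 FPKM in EV (SD, n = 2 each). The groups were well apart, and ASNS fell by 19.7% (log2 fold change -0.32, SE 0.0465, adjusted p = 7.76e-06), the largest called difference of the 32 genes. Its value was -0.29 with the level trend removed (adjusted p = 6.34e-05). Its expected counts were fractional, so RSEM had divided part of its reads with another gene.

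The serine branch starts from a glycolytic intermediate and runs through PHGDH, PSAT1 and PSPH in that order. PHGDH had 243 and 249 FPKM in OE and 273 and 269 FPKM in EV, and fell by 0.15 on the log2 scale (SE 0.0334, adjusted p = 0.00144). PSAT1 had 114 and 113 FPKM in OE and 141 and 130 FPKM in EV, and fell by 0.27 (SE 0.0423, adjusted p = 2.35e-05). Both OE libraries were below both EV libraries for each of these enzymes. PSPH, the last step, had 40.9 and 45.8 FPKM in OE and 48.5 and 45.8 FPKM in EV, so that 1 library of each group nearly met, and it was not called (log2 fold change -0.14, SE 0.0636, adjusted p = 0.147). Without OE replicate 2 it passed, at a log2 fold change of -0.22 (adjusted p = 0.0235), and without OE replicate 1 it was -0.06 (0.710). With the level trend removed, PSAT1 stood at -0.23 (adjusted p = 0.000268) and PHGDH at -0.11 (0.0227).

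Proline is made from glutamate by ALDH18A1 and then by PYCR enzymes. PYCR1 had 119 and 122 FPKM in OE and 131 and 138 FPKM in EV, and fell by 0.17 on the log2 scale (SE 0.0415, adjusted p = 0.00346). ALDH18A1, the enzyme before it, had 63.4 and 61.0 FPKM in OE and 59.0 and 57.0 FPKM in EV (log2 fold change 0.09, SE 0.0441, adjusted p = 0.207). Of the 2 proline enzymes, the called one was thus lower in OE and the other had both OE libraries above both EV libraries without a call. GPT2, the mitochondrial alanine aminotransferase, had 38.5 and 38.3 FPKM in OE and 38.2 and 39.3 FPKM in EV, which overlapped (log2 fold change -0.03, SE 0.0486). The PYCR1 call was lost without EV replicate 2 (adjusted p = 0.0966).

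Of the 5 one-carbon genes, 1 fell and 4 were not called, and all 5 had negative log2 fold changes, as did 49.3% of tested genes. MTHFD2, the mitochondrial enzyme that oxidises methylene-tetrahydrofolate, had 61.6 and 61.1 FPKM in OE and 71.8 and 68.1 FPKM in EV. The groups did not overlap, and MTHFD2 fell by 12.8% (log2 fold change -0.20, SE 0.0499, adjusted p = 0.00543). Without EV replicate 1 that call was lost (adjusted p = 0.115). SHMT2, which splits serine to glycine in mitochondria, had 170 and 169 FPKM in OE and 176 and 173 FPKM in EV (log2 fold change -0.06, SE 0.0356, adjusted p = 0.285). SHMT1, its cytosolic form, had 30.6 and 31.4 FPKM in OE and 35.4 and 31.8 FPKM in EV (log2 fold change -0.13, SE 0.0669, adjusted p = 0.189). In both SHMT genes the groups did not overlap, by a narrow margin for SHMT1. The SHMT1 value was -0.059 without EV replicate 1 and -0.205 without EV replicate 2.

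MTHFD1L, which releases formate from mitochondria, had 8.05 and 9.78 FPKM in OE and 12.4 and 9.21 FPKM in EV. The groups overlapped and EV replicate 1 alone was high (log2 fold change -0.21, SE 0.115, adjusted p = 0.242). ALDH1L2, the mitochondrial enzyme that oxidises formyl-tetrahydrofolate, was the least abundant of the 32 genes, at 0.42 and 0.65 FPKM in OE and 0.63 and 0.72 FPKM in EV. At this depth its log2 fold change of -0.33 had an SE of 0.303, and a difference of that size was not detectable. The value was -0.04 without OE replicate 1 and -0.68 without OE replicate 2.

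**Figure D3:**
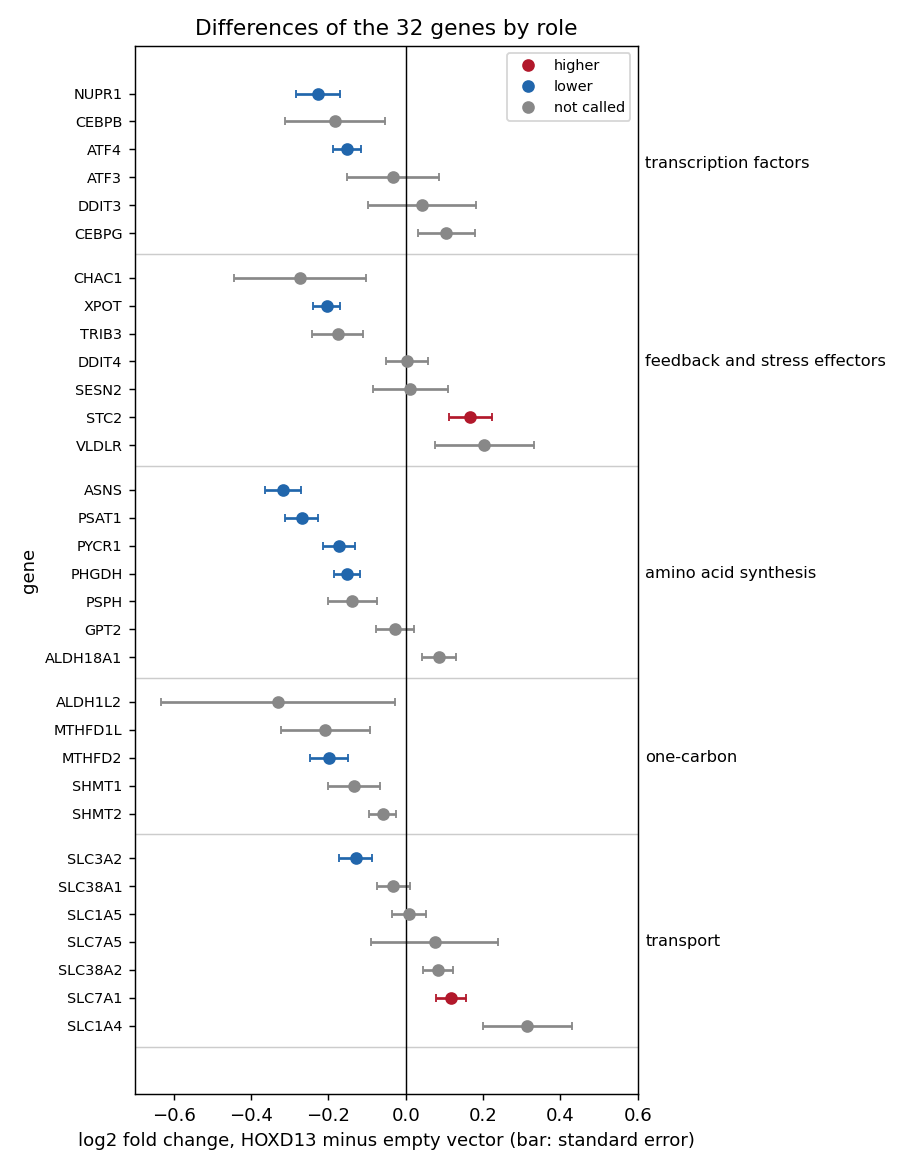
Log2 fold change of each of the 32 genes, HOXD13 minus empty vector, with its standard error from the edgeR quasi-likelihood test as a bar, grouped by role and coloured by call. Among synthesis genes 4 of 7 are called lower, while the transport genes lie on both sides of 0 with 1 call each way.

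Of the 7 transporters, 1 was called lower, 1 higher and 5 were not called. The 14.3% called each way stands against 8.11% lower and 7.91% higher among all tested genes. Log2 fold changes were positive in 5 of the 7 and negative in 2, where 49.3% of all tested genes were negative. With the level trend removed, 2 transporters were called higher and 0 lower. SLC3A2, the heavy chain that brings several light-chain transporters to the membrane, had 108 and 113 FPKM in OE and 118 and 119 FPKM in EV. Both OE libraries were lower, and SLC3A2 fell by 0.13 on the log2 scale (SE 0.0425, adjusted p = 0.0333). With the level trend removed its value was -0.10 and the call was lost (adjusted p = 0.138). The call was also lost without OE replicate 1 (adjusted p = 0.196), EV replicate 1 (0.0842) or EV replicate 2 (0.215). SLC7A5, the LAT1 light chain that pairs with SLC3A2 to import large neutral amino acids, was at 2.91 and 2.74 FPKM in OE and 2.89 and 2.37 FPKM in EV. It was the second least abundant of the 32 genes and its groups overlapped (log2 fold change 0.07, SE 0.165).

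SLC7A1, the CAT1 importer of arginine and lysine, had 47.6 and 46.2 FPKM in OE and 41.7 and 44.1 FPKM in EV. Without overlap, SLC7A1 rose (log2 fold change 0.12, SE 0.0389, adjusted p = 0.0360). Without OE replicate 1 the call was lost (adjusted p = 0.113), and without EV replicate 1 the log2 fold change was 0.07 (adjusted p = 0.488). SLC1A4, the ASCT1 exchanger of small neutral amino acids, had 6.26 and 5.81 FPKM in OE and 4.96 and 4.66 FPKM in EV. It had the largest positive log2 fold change of the 32 genes, 0.31 (SE 0.115), and missed the threshold (adjusted p = 0.0582).

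SLC1A5, the ASCT2 importer of glutamine, had 82.6 and 87.0 FPKM in OE and 86.3 and 82.3 FPKM in EV, which overlapped (log2 fold change 0.01, SE 0.0441). SLC38A1, a sodium-coupled glutamine transporter, had 28.4 and 29.9 FPKM in OE and 29.98 and 29.0 FPKM in EV, which also overlapped. SLC38A2, its close relative, which is induced when amino acids run short, had 78.0 and 74.4 FPKM in OE and 72.8 and 69.5 FPKM in EV. Both OE libraries of SLC38A2 were higher, and the difference was not called (log2 fold change 0.08, SE 0.0379, adjusted p = 0.143). With the level trend removed it was, at 0.12 (adjusted p = 0.0243). Its value was 0.11 without OE replicate 2 (adjusted p = 0.0425) and 0.05 without OE replicate 1 or EV replicate 2.

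Summed by role, the synthesis genes stood at 696 and 702 FPKM in OE and 784 and 770 FPKM in EV, and the transport genes at 354 and 359 FPKM in OE and 356 and 351 FPKM in EV. The one-carbon genes summed to 270 and 272 FPKM in OE and 296 and 283 FPKM in EV. The transcription factors summed to 435 and 439 FPKM in OE and 477 and 485 FPKM in EV, and the effectors to 263 and 251 FPKM in OE and 272 and 273 FPKM in EV. The transport sums overlapped between groups, and in the other 4 roles OE was lower in both libraries. PHGDH was the largest part of the synthesis sum and SHMT2 of the one-carbon sum. ATF4 was the largest part of the factor sum and XPOT of the effector sum. Of the effectors, 3 had negative and 4 positive log2 fold changes. Median log2 fold changes were -0.15 for synthesis, -0.20 for one-carbon, -0.09 for transcription factors, 0.00 for effectors and 0.07 for transport genes.

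Upstream of ATF4, the list of eIF2, its kinases and its phosphatase had 17 tested genes, of which 4 fell, none rose and 13 were not called. The 23.5% called lower stands against 8.11% of all tested genes. All 4 lie at 30 FPKM or more, where 26.2% of tested genes were called lower. The 17 also include genes below that level, so the 23.5% and the 26.2% are not like shares. The genes that fell were the 3 eIF2 subunit genes and the activator of the kinase GCN2. EIF2S1, the subunit that the kinases phosphorylate, had 42.9 and 41.3 FPKM in OE and 47.6 and 47.8 FPKM in EV (log2 fold change -0.19, SE 0.0453, adjusted p = 0.00267). EIF2S2 (log2 fold change -0.16, adjusted p = 0.0135) and EIF2S3 (-0.16, adjusted p = 0.00240) fell as well. GCN1L1, named GCN1 in newer annotation, had 49.1 and 50.5 FPKM in OE and 57.8 and 57.0 FPKM in EV (log2 fold change -0.22, SE 0.0344, adjusted p = 2.12e-05). The expected counts of EIF2S1 and EIF2S3 were fractional. EIF2AK1, EIF2AK2, EIF2AK3 and EIF2AK4, the 4 kinases, were not called. The EIF2S2 call was lost without EV replicate 1 (adjusted p = 0.0553) or EV replicate 2 (0.120), and with the trend removed (0.0520).

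Of 29 other tested enzymes of amino acid and one-carbon metabolism, 8 fell, none rose and 21 were not called. The 27.6% called lower stands against 8.11% of all tested genes. All 8 lie at 30 FPKM or more, where 26.2% of tested genes were called lower. The 29 also include genes below that level, so the 27.6% and the 26.2% are not like shares. The median log2 fold change of the 29 was -0.11. GOT2, the mitochondrial aspartate aminotransferase, had 88.2 and 96.9 FPKM in OE and 110 and 107 FPKM in EV (log2 fold change -0.25, SE 0.0451, adjusted p = 0.000181). GOT1, its cytosolic counterpart, had 41.2 and 42.5 FPKM in OE and 47.8 and 50.3 FPKM in EV (-0.24, SE 0.0601, adjusted p = 0.00456). MTHFD1, the cytosolic trifunctional folate enzyme, had 63.0 and 64.9 FPKM in OE and 71.8 and 76.8 FPKM in EV (-0.23, SE 0.0436, adjusted p = 0.000274). In all 3 genes both OE libraries were below both EV libraries. PYCRL, a further proline enzyme, fell by 0.19 on the log2 scale (adjusted p = 0.0311), and by 0.11 without EV replicate 2 (adjusted p = 0.453). That call was also lost without OE replicate 2 (adjusted p = 0.112) and with the trend removed (0.0673), and the GOT1 call without EV replicate 2 (0.0747).

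Of 21 other tested amino acid transporters, 2 rose, none fell and 19 were not called, with a median log2 fold change of 0.06. The 9.52% called higher is near the 7.91% among all tested genes. SLC1A1, the neuronal and epithelial glutamate importer, had 4.16 and 3.97 FPKM in OE and 2.69 and 2.54 FPKM in EV (log2 fold change 0.62, SE 0.163, adjusted p = 0.00756). Both OE libraries were higher, by more than any of the 32 genes differed, and without OE replicate 1 the call was lost (adjusted p = 0.0534). SLC38A10 had 44.8 and 43.5 FPKM in OE and 38.3 and 36.1 FPKM in EV (0.23, SE 0.0488, adjusted p = 0.000837).

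Among 23 tested genes of mTORC1 and amino acid sensing, 2 rose, 2 fell and 19 were not called. These shares, 8.70% each way, are near the 7.91% higher and 8.11% lower among all tested genes. SESN3, a relative of SESN2 that restrains mTORC1, had 28.8 and 27.3 FPKM in OE and 20.6 and 19.96 FPKM in EV. It rose by 0.45 on the log2 scale (SE 0.0435, adjusted p = 3.36e-09), while SESN2 and SESN1 were not called. TSC1, part of a complex that inhibits mTORC1, rose (0.20, SE 0.0719, adjusted p = 0.0491). RRAGA, a GTPase that brings mTORC1 to lysosomes, fell (-0.25, SE 0.0664, adjusted p = 0.00910), as did LAMTOR5, a subunit of its lysosomal anchor (-0.23, SE 0.0786, adjusted p = 0.0433). The RRAGA call was lost without OE replicate 1 (adjusted p = 0.0525) and without EV replicate 1 (0.275, log2 fold change -0.16). The LAMTOR5 call was lost without any 1 of the libraries (adjusted p between 0.0688 and 0.223) and with the trend removed (0.0611). The TSC1 call was lost without OE replicate 2 (0.272), EV replicate 1 (0.162) or EV replicate 2 (0.186).

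Across 12 other fits and a stricter threshold, XPOT, ASNS and PSAT1 were called lower every time. The other 8 called genes kept their sign and lost the call in at least 1 of them. Adjusted p over these alternatives ranged from 4.12e-07 to 0.0491 for XPOT, from 1.34e-09 to 0.0246 for ASNS and from 2.92e-09 to 0.0490 for PSAT1. The DESeq2 Wald test called 8 of the 32 genes lower and none higher, and lost STC2 (adjusted p = 0.167), SLC3A2 (0.0990) and SLC7A1 (0.115). Only 6364 genes had an adjusted p in that test, of which 9.4% were lower and 7.34% higher. ATF3, DDIT3, CEBPB, CHAC1, SESN2, VLDLR, MTHFD1L, ALDH1L2, SLC7A5 and SLC1A4 had no adjusted p there and could not be called. The count over the 32 and these percentages are thus not like shares. Limma on log2(FPKM + 1), which held 31 of the 32 genes, called 4 lower and none higher, where 1.93% of its genes were lower and 2.94% higher. The 4 were XPOT, ASNS, PSAT1 and NUPR1, and it called none of the named genes of the eIF2, enzyme and transporter lists. Of the 11 called genes, ASNS, MTHFD2 and SLC3A2 had fractional counts, and their values carry the uncertainty of how RSEM divided those reads.

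**Figure D4:**
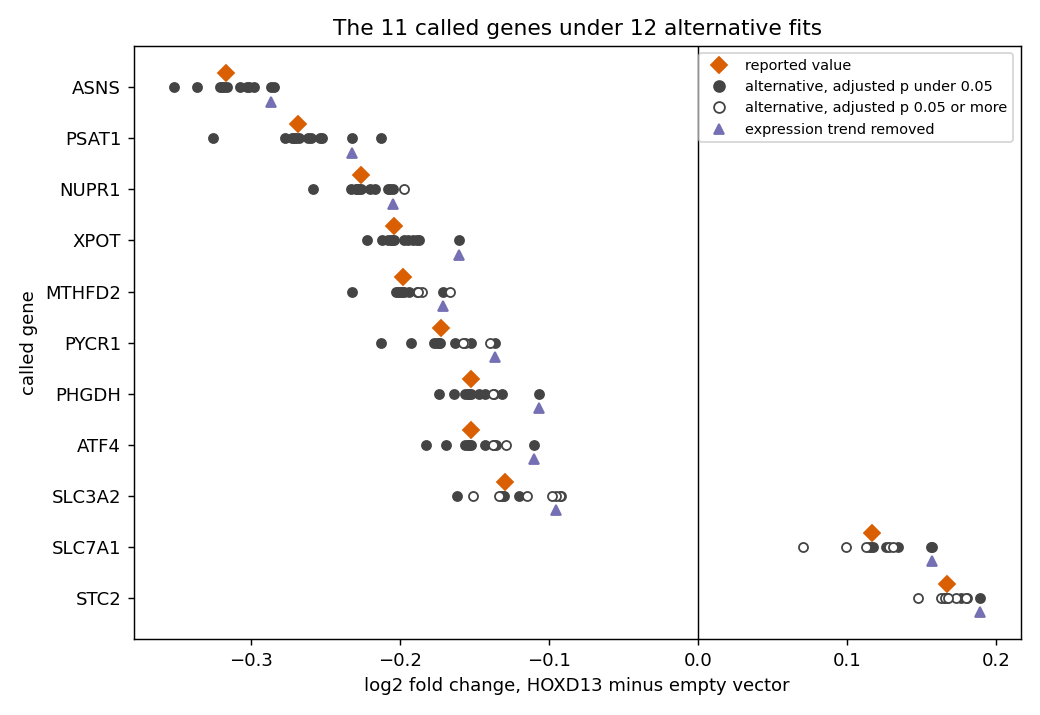
Log2 fold change, HOXD13 minus empty vector, of the 11 called genes in the reported fit (diamonds), with the expression trend removed (triangles) and in all 12 alternative fits (circles, filled where the adjusted p was under 0.05). No gene changes sign, and ASNS, PSAT1 and XPOT have filled circles only.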

How the data were processed

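RNA-seq of 4 LNCaP libraries was used, 2 per group. The submitters' processing notes name the tools Bowtie2 and RSEM and the builds hg18 and hg19. Tool versions, and which build served for what, were not stated there. The deposited expected counts are RSEM estimates per gene, per the file headers, and divide a shared read among genes. The deposited FPKM are the authors' values, per the file headers, and are printed unchanged. A gene missing from a library's table was given 0.

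Expected counts were rounded and tested with edgeR 4.0.16 in R 4.3.3 (robust quasi-likelihood test, TMM, filterByExpr, 14112 genes), OE minus EV, with Benjamini-Hochberg adjustment over all genes and a threshold of 0.05. Standard errors were obtained as |log2 fold change| over the root of the F statistic. The test was tested on simulated data. DESeq2 1.42.0, limma 3.58.1 with a pseudocount of 1 or 0.1 on log2 FPKM (genes reaching 1 FPKM in 2 or more libraries), DESeq2 size factors, other filters, a threshold of 0.01, the replicate number as a block, a loess trend on level (span 0.5) and each left-out library were alternatives. Chi-square per degree of freedom between the counts of a pair was 1.76 within OE and 1.57 within EV, and each library was counted as 1 replicate. Total counts of 6881110 to 8530487 give the precision stated with each standard error.

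The 32 genes, the lists and the rule for naming genes (all 32, and up to 4 called genes of each other list by size of change) were chosen with earlier results of these data known. Promoter windows are RefSeq's, GRCh38.p14, matched by gene ID, and do not share the files' build.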

Additional observations from a re-analysis of the deposited data

How the results depend on the processing

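Groups of 2 libraries limit every p-value, and low genes such as ALDH1L2 and CHAC1 had the largest standard errors. Deviations from the group mean had a correlation of 0.0703 between libraries of the same replicate number, unweighted over all tested genes. Low genes count as much as abundant ones there, so the value cannot exclude a shared culture or day. With the replicate number as a block, 3 of the 32 genes were higher and 10 lower, with 2 effectors lower and 2 transport genes higher. Against 1116 higher and 1144 lower over all genes, the DESeq2 Wald test called 467 and 598, limma on log2(FPKM + 1) 398 and 261, on log2(FPKM + 0.1) 382 and 265, and a threshold of 0.01 647 and 633; leaving out 1 library gave 751 to 927 higher and 714 to 1064 lower. Of the 32 genes, DESeq2, both limma fits and the threshold of 0.01 called 0 higher, and both limma fits 4 lower; without 1 library 0 to 2 were higher and 6 to 10 lower. By role, both limma fits called 1 transcription factor, 2 synthesis genes and 0 one-carbon genes lower. DESeq2, both limma fits and the threshold of 0.01 called 0 effectors higher and 0 transport genes either way. Without the low-count filter 2 effectors were lower, with a mean of at least 50 counts 2 transport genes were higher, and with the trend removed 2 were higher and 0 lower. Without 1 library the ranges were 1 to 2 factors, 1 to 2 effectors, 3 to 5 synthesis and 0 to 1 one-carbon and transport genes lower, and 0 effectors and 0 to 2 transport genes higher. Of the other lists' 4 higher and 14 lower genes, DESeq2 called 2 and 7, both limma fits 1 and 0, the trend fit 4 and 9, the threshold of 0.01 8 lower, and fits without 1 library 3 to 5 and 7 to 13. Signs turned only for genes without a call: DDIT4 (DESeq2, -0.0013), SLC38A1 (trend removed, 0.0029), and without 1 library ATF3 (-0.11 to 0.041), DDIT3 (-0.14 to 0.23), DDIT4 (-0.050 to 0.053), SESN2 (-0.033 to 0.055), SLC7A5 (-0.057 to 0.23), SLC1A5 (-0.027 to 0.039) and SLC38A1 (-0.074 to 0.0084). Why values changed with the setting was not tested.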
